A study of Mus musculus with 14 samples.

Results

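Cells sorted for green fluorescent protein (SEZ_GFP) were compared with cells sorted for prominin (SEZ_Prom), both from the subependymal zone (SEZ), where neurons are formed beside the lateral ventricle of the adult brain. The samples were taken by their titles and make up 4 of the 14 arrays of the series, 2 per group, and all 18193 genes with a probe set of 1 gene symbol were tested. All groups came from 8-week-old hGFAP eGFP mice, which make the fluorescent protein (GFP) from a promoter of the human GFAP gene. SEZ_GFP cells were selected by flow sorting as GFP-positive, SEZ_Prom cells as positive for prominin, the surface protein encoded by Prom1, and a further SEZ group of 4 arrays, SEZ_GFPprom, as positive for both. The labels call all 3 sorts neural stem cells and do not say whether the single sorts left out cells with the other marker. The other groups, CD24-sorted SEZ cells (2 arrays) and GFP-sorted cells of the diencephalon (4 arrays), entered the estimate of the spread and, with all arrays, the choice of the probe set that stands for each gene, on average the brightest. Arrays of a group are named biological replicates, with no word on separate animals, so the p-values rest on the spread among arrays, which may be technical, and with 2 arrays a group the precision is low.

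As background, the adult SEZ holds astrocyte-like stem cells, which give rise to fast-dividing progenitors and these to neuroblasts that migrate to the olfactory bulb. Multiciliated ependymal cells line the ventricle beside them, and myelinating oligodendrocytes, striatal neurons, microglia and the choroid plexus lie close by. Prominin is carried by ependymal cells and stem cells and is known from other membrane-rich cells, while the human GFAP promoter is active in astrocytes and stem cells, whose GFP can persist in their progeny.

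The values are linear intensities, tested as log2, and each difference below is SEZ_GFP minus SEZ_Prom on the log2 scale with its SE and its adjusted p from limma. Values of an array are intensities in the order of the replicate numbers. In RNA of sorted cells, fewer cells of a type and less RNA per cell cannot be told apart.

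Genes of the sorting proteins come first. Gfap had an intensity of 193 and 218 in SEZ_GFP, against 143 and 279 in SEZ_Prom, and Prom1 had 243 and 347 in SEZ_GFP, against 194 and 345 in SEZ_Prom. The groups overlapped in both genes, and neither difference passed the test (Gfap 0.04 ± 0.67, adjusted p = 1; Prom1 0.17 ± 0.54, adjusted p = 0.917). The transcript of the GFP transgene was not analysed here. Cd24a, which encodes a surface protein of neuroblasts and ependymal cells, had 1884 and 1565 in SEZ_GFP, against 609 and 264 in SEZ_Prom. Both SEZ_GFP arrays lay above both SEZ_Prom arrays, a difference of 2.10 ± 0.46 (adjusted p = 0.0204). All 3 probe sets of Cd24a were higher in SEZ_GFP, by 2.10 to 3.20. Over the leave-one-out fits the adjusted p of Cd24a was 0.0310 to 0.150, and it passed in 1 of the 4.

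Between the sorts, 512 genes were higher and 755 lower in SEZ_GFP at an adjusted p under 0.05, which is 2.81% and 4.15% of the genes tested (6.96% together). The unadjusted p of limma was under 0.05 in 3910 of the 18193 genes, both directions together. Genes of cell division and of young neurons led the higher side, and genes of myelin, choroid plexus and mature neurons the lower side. In all 1267 genes the SEZ_GFP arrays did not overlap the SEZ_Prom arrays, which also held, without regard to the test, for 24.4% of all genes on the higher side and 27.8% on the lower side. The median size of the change was 3.26-fold among the higher genes and 4.28-fold among the lower ones. At least 8-fold changes numbered 31 among the higher genes and 118 among the lower ones. The plot of the difference against the level shows called genes over nearly the whole range of levels.

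**Figure D1:**
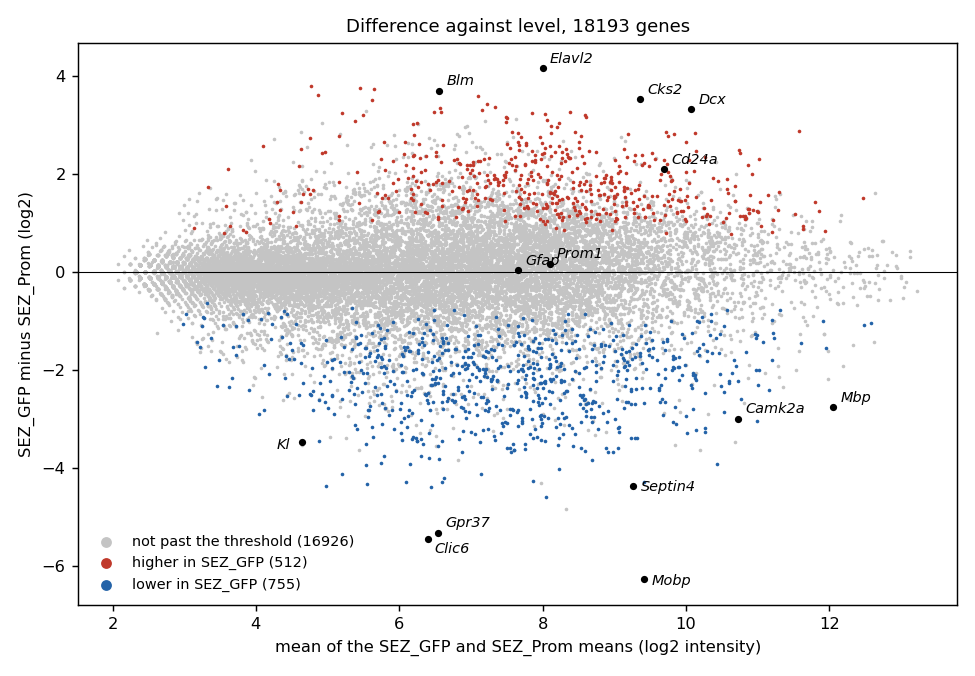
Each point is 1 of the 18193 genes, with the mean of the SEZ_GFP and SEZ_Prom means (log2 intensity) on the x axis and the difference SEZ_GFP minus SEZ_Prom (log2) on the y axis. Red marks the 512 genes higher and blue the 755 genes lower in SEZ_GFP past the threshold; Gfap (0.04) and Prom1 (0.17) lie near 0, Elavl2 (4.16) at the top and Mobp (-6.27) at the bottom.

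How many genes passed rested on single arrays. Leaving out 1 of the 4 arrays in turn left 335 genes without SEZ_GFP replicate 1, 77 without SEZ_GFP replicate 2, 318 without SEZ_Prom replicate 1 and 291 without SEZ_Prom replicate 2, where 1 group then has 1 array whose spread is assumed to be that of the other groups. All 1267 genes kept their direction in all 4 of these fits, which was fixed in advance because their groups do not overlap. Of them, 68 (22 higher and 46 lower) stayed past the threshold in every one. Those 68 are called stable to leaving out an array below, and a called gene not named as stable lost its call in at least 1 of the 4 fits. The 2 SEZ_GFP arrays correlated at r = 0.979 across genes and the 2 SEZ_Prom arrays at r = 0.970, against 0.909 to 0.922 between the groups, and the log2 ratio of 3' to 5' signal of the control transcripts was 4.63 and 4.82 in SEZ_GFP and 4.67 and 4.58 in SEZ_Prom.

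The 15 highest differences among called genes ran from 3.27 to 4.16. They were Elavl2, Ninl, Edaradd, Dscc1, Blm, Haspin, Plk4, Cks2, Kif20b, Cacng5, Mthfd2l, Dusp4, Dcx, Casp8ap2 and Cemip2. Elavl2, an RNA-binding protein of neurons, had 949 and 1237 in SEZ_GFP, against 307 and 12 in SEZ_Prom, and its difference of 4.16 ± 1.09 (adjusted p = 0.0429) ran from 1.82 to 6.50 over the leave-one-out fits. The 2 SEZ_Prom arrays thus lay far apart, and 1 of the 4 fits kept the call. Blm, a DNA helicase of the RecQ family that acts in recombination repair, had 336 and 341 in SEZ_GFP, against 34 and 20 in SEZ_Prom. Its difference of 3.70 ± 0.41 (adjusted p = 0.00165) was stable to leaving out an array. Edaradd, an adaptor of the ectodysplasin receptor, had 239 and 108 in SEZ_GFP, against 10 and 14 in SEZ_Prom. It was higher by 3.76 ± 0.51 (adjusted p = 0.00358) on a probe set whose name marks a shared sequence. That call held in all 4 leave-one-out fits, but none of the other 4 probe sets of Edaradd passed, with differences of 0.00 to 0.58, and without probe sets of shared sequence its difference was 0.14 (adjusted p = 0.799). This alternative leaves out every probe set whose name ends in _a_at, _s_at or _x_at. It goes by these endings alone and does not show that a sequence belongs to another gene. Kif20b, a kinesin of cell division, has an _a_at probe set and differed there by 0.37 (adjusted p = 0.774). The probe set then used was dim, with 11 and 19 in SEZ_GFP, against 7 and 18 in SEZ_Prom. In SEZ_GFPprom, Edaradd had 12 to 15, close to the SEZ_Prom level. Of these 15 genes, Ninl and Haspin had a SEZ_Prom mean under an intensity of 10, and with values under 10 set to 10 their differences were 3.34 and 3.11. Mthfd2l, a mitochondrial enzyme of folate metabolism, differed by 3.37 on its brightest probe set and by -0.60 (adjusted p = 0.672) on the one used when probe sets of shared sequence were left out.

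Genes of the cell cycle were higher in SEZ_GFP as a group. Of 45 listed cell cycle genes 20 passed the test as higher and 0 as lower, beside 2.81% of all genes on the higher side. At an unadjusted p under 0.05, 39 were higher, beside 3910 of all 18193 genes in either direction. The median difference was 2.10, against -0.01 over all genes tested. All 45 differences were above 0, the lowest being 0.26. In 43 genes both SEZ_GFP arrays lay above both SEZ_Prom arrays, beside 24.4% of all genes. The summed intensity of the list was 33346 to 37590 in SEZ_GFP, against 7864 to 7946 in SEZ_Prom.

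The called cell cycle genes covered the replicative helicase and its loading (Mcm2, Mcm4, Mcm5, Mcm6, Mcm7, Gins2), nucleotide supply (Rrm1), entry into S phase (Ccne2), the kinetochore and its motors (Cenpa, Cenpe, Spc25), and mitosis and cytokinesis (Aurka, Birc5, Kif20a, Kif23, Top2a, Ube2c), with Cks2, Hmgb2 and Mki67. Mcm6, a subunit of the helicase that opens DNA for replication, had 894 and 809 in SEZ_GFP, against 198 and 139 in SEZ_Prom. The groups stood apart with little spread, a difference of 2.36 ± 0.31 (adjusted p = 0.0033) that was stable to leaving out an array. Cks2, a small partner of cyclin-dependent kinases, had 1947 and 2556 in SEZ_GFP, against 193 and 194 in SEZ_Prom, and was 11.5-fold higher (3.53 ± 0.79, adjusted p = 0.0235). Its adjusted p over the leave-one-out fits was 0.0898 to 0.159. Both SEZ_GFP arrays of Cks2 lay far above its nearly equal SEZ_Prom arrays. Kif20a, a kinesin of cytokinesis, had 192 and 228 in SEZ_GFP, against 30 and 22 in SEZ_Prom (3.03 ± 0.45, adjusted p = 0.00532). Cenpa, the histone variant of centromeres, had 662 and 790 in SEZ_GFP, against 163 and 107 in SEZ_Prom (2.45 ± 0.39, adjusted p = 0.00587). Ube2c, which tags mitotic cyclins for destruction, had 719 and 768 in SEZ_GFP, against 134 and 148 in SEZ_Prom (2.40 ± 0.39, adjusted p = 0.00664). In each of these 5 genes the SEZ_GFP arrays were the higher ones with no overlap. Kif20a, Cenpa and Ube2c missed the threshold without SEZ_GFP replicate 2 (adjusted p 0.0619 to 0.0663), and Cenpa also without SEZ_Prom replicate 2 (0.053). Without SEZ_GFP replicate 1, SEZ_GFP replicate 2, SEZ_Prom replicate 1 or SEZ_Prom replicate 2, 6, 1, 9 and 4 of the 45 genes passed, with list medians of 2.09, 2.13, 2.16 and 1.81. Without probe sets of shared sequence, 10 of 40 passed, with a median of 1.80, and Mcm6 and Cenpa did not (1.51, adjusted p = 0.131, and 1.47, adjusted p = 0.115).

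Because the cell cycle genes moved together, their promoters are shown for letters known from such genes: TTTGAA, the cell cycle homology region, and TTCGCGC and TTGGCGC, forms of the E2F site. The windows are the 250 bases before the gene's start, from RefSeq on GRCm38.p6, read 5′ to 3′ on the gene's strand, with matches on either strand in capitals, and TTCGCGC and TTGGCGC sites can overlap. Of the 20 called cell cycle genes 16 had a promoter in the table, and 5 of these held TTTGAA (31.2%) and 3 an E2F form (18.8%). Of all genes tested, 14453 had a promoter, 14.1% with TTTGAA and 5.56% with an E2F form. Among all 512 genes higher in SEZ_GFP the shares were 14.9% and 11.7% of 402 with a promoter, and among the 755 lower ones 14.1% and 6.08% of 609. These counts describe letters in a window and are not sites or causes. Mcm6 lies at chr1:128359706-128359955 (minus strand), Mcm5 at chr8:75109259-75109508 (plus), Ube2c at chr2:164769679-164769928 (plus) and Mki67 at chr7:135716380-135716629 (minus). Mobp, the gene with the lowest difference, at chr9:120149492-120149741 (plus), holds none of these letters and is shown beside them.
Mcm6: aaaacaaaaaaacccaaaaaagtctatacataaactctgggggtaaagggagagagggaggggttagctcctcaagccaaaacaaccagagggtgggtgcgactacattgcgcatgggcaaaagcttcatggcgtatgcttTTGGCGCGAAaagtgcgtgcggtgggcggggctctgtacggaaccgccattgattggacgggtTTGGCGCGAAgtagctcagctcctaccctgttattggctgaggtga
Mcm5: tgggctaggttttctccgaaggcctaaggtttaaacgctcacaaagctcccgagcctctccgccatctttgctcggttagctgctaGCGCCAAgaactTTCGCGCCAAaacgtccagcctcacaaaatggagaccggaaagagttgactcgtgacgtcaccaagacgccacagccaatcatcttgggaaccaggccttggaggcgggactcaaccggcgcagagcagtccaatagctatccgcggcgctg
Ube2c: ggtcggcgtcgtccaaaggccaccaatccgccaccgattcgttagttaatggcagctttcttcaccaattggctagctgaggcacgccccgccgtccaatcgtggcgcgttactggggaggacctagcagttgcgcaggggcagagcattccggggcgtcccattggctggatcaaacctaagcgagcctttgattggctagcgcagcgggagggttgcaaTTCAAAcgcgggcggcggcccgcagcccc
Mki67: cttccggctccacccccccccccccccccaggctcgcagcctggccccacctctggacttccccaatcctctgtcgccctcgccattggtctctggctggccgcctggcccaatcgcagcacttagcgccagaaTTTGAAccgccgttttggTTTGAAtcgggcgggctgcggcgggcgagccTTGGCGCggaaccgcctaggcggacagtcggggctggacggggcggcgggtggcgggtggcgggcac
Mobp: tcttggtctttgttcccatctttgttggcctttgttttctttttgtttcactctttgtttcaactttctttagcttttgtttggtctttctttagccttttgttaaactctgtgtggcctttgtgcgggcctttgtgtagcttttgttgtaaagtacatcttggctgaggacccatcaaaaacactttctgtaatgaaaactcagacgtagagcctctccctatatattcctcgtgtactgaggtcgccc

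In Mcm6 the 2 capital runs start 109 and 46 bases before the gene's start and each joins TTGGCGC to GCGCGAA, the reverse complement of TTCGCGC. In Ube2c the capitals are TTCAAA, the reverse complement of TTTGAA, 29 bases before the start. Mki67, the nuclear antigen used to mark dividing cells, holds TTTGAA at 116 and 98 bases and TTGGCGC at 67 bases before its start. For Mki67 the intensity was 2000 and 2918 in SEZ_GFP, against 251 and 464 in SEZ_Prom (2.82 ± 0.74, adjusted p = 0.0435). For Mcm5, another helicase subunit, it was 2876 and 3094 in SEZ_GFP, against 400 and 442 in SEZ_Prom (2.83 ± 0.68, adjusted p = 0.0313). Neither gene passed in a leave-one-out fit (adjusted p 0.103 to 0.247 for Mki67 and 0.121 to 0.172 for Mcm5), and without probe sets of shared sequence Mcm5 did not pass either (2.37, adjusted p = 0.0833). Short letters of the X-box, the site of RFX factors, GTTGCC and GTTACC, were in 12.5% of the 16 promoters, against 17.7% of all.

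Neuroblast markers were the next group on the higher side. Of 31 measured markers 15 were higher and 0 lower, beside 2.81% and 4.15% of all genes, with a median difference of 1.70. With an unadjusted p under 0.05, 25 were higher and 1 lower, beside 3910 of all 18193 genes in either direction. The summed intensity of the list was 58981 to 64371 in SEZ_GFP, against 24119 to 30004 in SEZ_Prom. Dcx, the microtubule protein doublecortin of migrating neuroblasts, had 3340 and 3463 in SEZ_GFP, against 591 and 197 in SEZ_Prom. The SEZ_GFP arrays were nearly equal and the SEZ_Prom arrays apart from each other but far lower, a difference of 3.32 ± 0.56 (adjusted p = 0.00761). Igfbpl1, a secreted protein of the insulin-like growth factor binding family, had 571 and 512 in SEZ_GFP, against 100 and 77 in SEZ_Prom (2.62 ± 0.30, adjusted p = 0.00165), and was the member stable to leaving out an array. Celsr3, an atypical cadherin of axon guidance, had 277 and 375 in SEZ_GFP, against 53 and 80 in SEZ_Prom (2.31 ± 0.42, adjusted p = 0.0102). Both SEZ_GFP arrays were above both SEZ_Prom arrays in all 3 genes. Dcx missed the threshold without SEZ_GFP replicate 2 (0.0694) or SEZ_Prom replicate 2 (0.0586), and Celsr3 without SEZ_GFP replicate 2 (0.102) or SEZ_Prom replicate 1 (0.0781).

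Ncam1, the neural cell adhesion molecule, gave different answers by probe set. Its brightest probe set had 4146 and 5076 in SEZ_GFP, against 1204 and 725 in SEZ_Prom (2.30 ± 0.32, adjusted p = 0.004). Another of its 7 probe sets had 126 and 53 in SEZ_GFP, against 254 and 499 in SEZ_Prom, and was lower (-2.12, adjusted p = 0.0391 over probe sets). Of 843 called genes with several probe sets, all probe sets pointed the same way in 556 and all passed the test that way in 78, while 5 genes, Ncam1, Dscaml1, Emsy, Rian and Trim37, had a probe set past the threshold in the opposite direction (named after their values were seen).

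The neuroblast markers that did not pass included Stmn4, a stathmin-family microtubule regulator, with 2336 and 2194 in SEZ_GFP, against 4342 and 5367 in SEZ_Prom (-1.09 ± 0.30, adjusted p = 0.051), and Gad2, an enzyme of GABA synthesis, with 147 and 158 in SEZ_GFP, against 237 and 157 in SEZ_Prom (-0.34 ± 0.45, adjusted p = 0.76). Leaving out SEZ_GFP replicate 1, SEZ_GFP replicate 2, SEZ_Prom replicate 1 or SEZ_Prom replicate 2 left 6, 1, 9 and 3 of the 31 markers past the threshold, with medians of 1.65, 1.75, 2.01 and 1.31.

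Transcription factors of adult neurogenesis, some of them also on the neuroblast list, had 5 of 21 higher and 0 lower. These counts stand beside 2.81% and 4.15% of all genes, and the median was 1.19. The 5 were Sox11, Myt1, Pbx3, Sp8 and Meis2. Sox11, an SRY-related factor of immature neurons, had 3764 and 3978 in SEZ_GFP, against 1253 and 741 in SEZ_Prom (2.01 ± 0.37, adjusted p = 0.011). Myt1, a zinc finger factor of neural progenitors, had 183 and 179 in SEZ_GFP, against 55 and 48 in SEZ_Prom (1.82 ± 0.34, adjusted p = 0.0121). Sp8, a factor of olfactory bulb interneurons, had 493 and 179 in SEZ_GFP, against 80 and 12 in SEZ_Prom (3.26 ± 0.83, adjusted p = 0.0386), so that arrays within each group also lay apart. Factors of glutamatergic lineages were not among them: Eomes had 45 and 48 in SEZ_GFP, against 46 and 65 in SEZ_Prom, Tbr1 stood at 4 to 6 on all 4 arrays, and Neurog2 had 6 and 10 in SEZ_GFP, against 7 and 12 in SEZ_Prom. In 3 of the leave-one-out fits, those without SEZ_GFP replicate 1, SEZ_GFP replicate 2 or SEZ_Prom replicate 2, 0 of the 21 factors passed, and without SEZ_Prom replicate 1, 3 did.

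Stem cell and radial glia genes were mixed, with 5 of 26 higher and 1 lower, beside 2.81% and 4.15% of all genes. Their median was 0.63. The higher genes were Vim, Sox2, Msi2, Egfr and Notch1. Vim, the intermediate filament vimentin, had 1471 and 1158 in SEZ_GFP, against 315 and 210 in SEZ_Prom (2.34 ± 0.43, adjusted p = 0.0113). Sox2, a factor that maintains neural stem cells, had 782 and 866 in SEZ_GFP, against 380 and 263 in SEZ_Prom (1.38 ± 0.27, adjusted p = 0.0136), and Egfr, the receptor of epidermal growth factor carried by activated stem cells and progenitors, had 549 and 489 in SEZ_GFP, against 174 and 113 in SEZ_Prom (1.89 ± 0.46, adjusted p = 0.0342). SEZ_GFP was the higher group without overlap in these 3 genes. Hopx, a homeodomain-only protein found in quiescent stem cells and astrocytes, was lower, with 203 and 123 in SEZ_GFP, against 550 and 506 in SEZ_Prom (-1.74 ± 0.39, adjusted p = 0.0223). Id4, a helix-loop-helix inhibitor of stem cells, did not pass, with 2550 and 2228 in SEZ_GFP, against 3058 and 2226 in SEZ_Prom (-0.13 ± 0.24, adjusted p = 0.837). None of the 6 calls was stable to leaving out an array. Without SEZ_GFP replicate 1, SEZ_GFP replicate 2, SEZ_Prom replicate 1 or SEZ_Prom replicate 2, 0, 0, 2 and 0 of the list were higher and 1, 0, 0 and 0 lower.

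Astrocyte markers did not separate the sorts as a group. Of 32 measured markers 1 was higher and 1 lower, beside 2.81% and 4.15% of all genes. Their median was -0.32, with 13 differences above 0 and 19 below. The summed intensity was 42689 to 53322 in SEZ_GFP, against 49684 to 56949 in SEZ_Prom, so the groups overlapped. Gja1, the gap junction protein connexin 43, had 4535 and 3978 in SEZ_GFP, against 3057 and 2593 in SEZ_Prom (0.59 ± 0.37, adjusted p = 0.41), and Slc1a3, the glutamate transporter GLAST, had 1253 and 1332 in SEZ_GFP, against 805 and 783 in SEZ_Prom (0.70 ± 0.43, adjusted p = 0.401). Neither passed although their arrays did not overlap. The higher gene was Cbs, the enzyme cystathionine beta-synthase, with 474 and 348 in SEZ_GFP, against 120 and 222 in SEZ_Prom (1.32 ± 0.36, adjusted p = 0.0492). Its call was lost in each leave-one-out fit (adjusted p 0.0572 to 0.307). The lower gene was S100b, a calcium-binding protein that mature oligodendrocytes and ependymal cells also express, with 110 and 92 in SEZ_GFP, against 1324 and 1049 in SEZ_Prom (-3.55 ± 0.59, adjusted p = 0.00758). It passed in 2 of the 4 such fits and missed without SEZ_GFP replicate 2 (0.0738) or SEZ_Prom replicate 1 (0.0538).

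**Figure D2:**
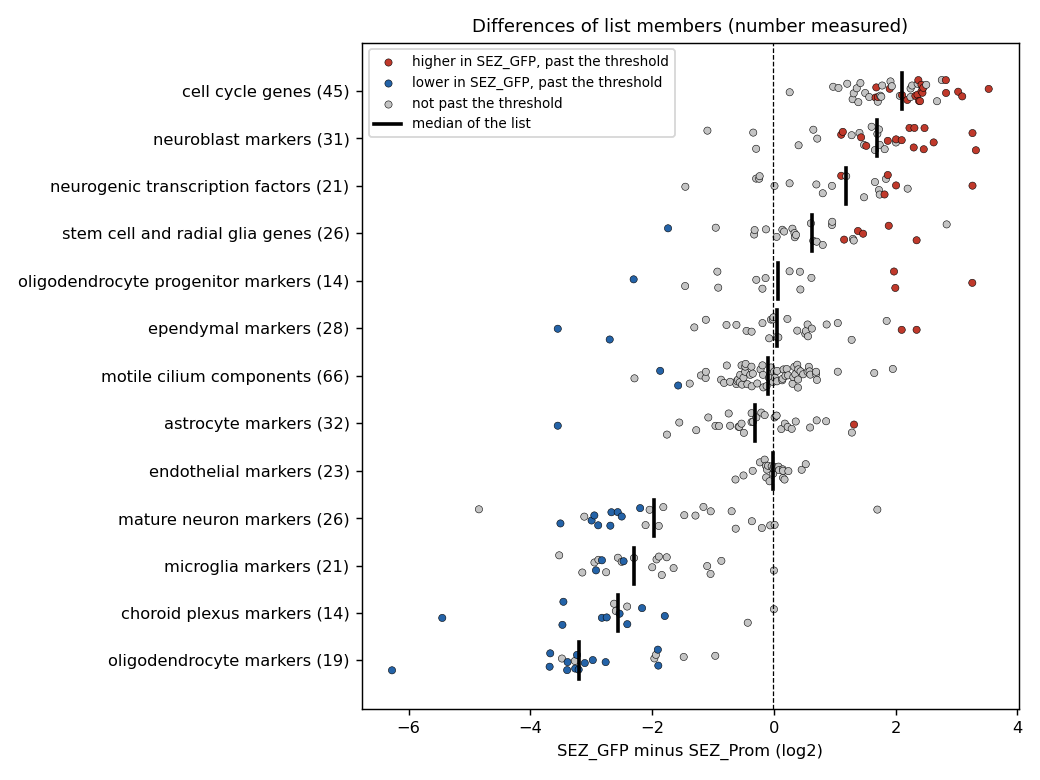
Each point is a measured member of a list, placed by its difference SEZ_GFP minus SEZ_Prom (log2, x axis), with red and blue for members past the threshold, a black bar at the list's median and a dashed line at the median of all genes (-0.01). Cell cycle genes (median 2.10) and neuroblast markers (1.70) lie to the right, oligodendrocyte (-3.21), choroid plexus (-2.57), microglia (-2.30) and mature neuron markers (-1.97) to the left, and endothelial markers (-0.01) at the line.

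On the lower side, the 15 lowest differences among called genes ran from -6.27 to -4.12. They were Mobp, Clic6, Gpr37, Lpar1, Sowaha, Kcna5, Septin4, Ell2, Rab40b, Sgk1, Cd83, Evi2a, Slc24a2, Ldlrad4 and Gpr62. Several of them, such as Mobp, Gpr37, Lpar1 and Gpr62, are known from mature oligodendrocytes. Gpr37, an orphan receptor, had 18 and 12 in SEZ_GFP, against 579 and 597 in SEZ_Prom (-5.32 ± 0.72, adjusted p = 0.00361). Lpar1, a receptor of lysophosphatidic acid, had 82 and 35 in SEZ_GFP, against 1180 and 1424 in SEZ_Prom (-4.60 ± 0.44, adjusted p = 0.00113). Septin4, a cytoskeletal GTPase, had 173 and 106 in SEZ_GFP, against 2604 and 2990 in SEZ_Prom (-4.36 ± 0.52, adjusted p = 0.00196). These 3 genes, with Mobp, Clic6 and Sgk1, were the 6 of the 15 stable to leaving out an array. Kcna5 and Ldlrad4 had a SEZ_GFP mean under 10, and with values under 10 set to 10 their differences were -3.84 and -3.87. Without probe sets of shared sequence, Evi2a and Ldlrad4 did not pass (-0.29, adjusted p = 0.811, and -1.69, adjusted p = 0.073).

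Oligodendrocyte markers formed the largest group of lower calls among the 30 lists. Of 19 measured markers 13 were lower and 0 higher, beside 4.15% of all genes, with a median of -3.21. All 19 differences were below 0, from -6.27 to -0.96. In all 19 genes both SEZ_GFP arrays lay below both SEZ_Prom arrays, beside 27.8% of all genes. The summed intensity was 6625 to 9677 in SEZ_GFP, against 51916 to 53366 in SEZ_Prom.

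Mobp, a structural protein of compact myelin, had 116 and 52 in SEZ_GFP, against 6295 and 5727 in SEZ_Prom. It had the largest difference of all genes, 77.3-fold lower in SEZ_GFP (-6.27 ± 0.68, adjusted p = 0.00165). All 5 of its probe sets had differences below 0, from -6.27 to -1.66. Mbp, myelin basic protein, had 1854 and 1435 in SEZ_GFP, against 11327 and 10834 in SEZ_Prom (-2.76 ± 0.21, adjusted p = 0.000468), and all 8 of its probe sets had differences below 0. Bcas1, a marker of newly myelinating oligodendrocytes, had 377 and 420 in SEZ_GFP, against 3892 and 3757 in SEZ_Prom (-3.26 ± 0.44, adjusted p = 0.00358). Sirt2, a deacetylase of myelin, had 595 and 459 in SEZ_GFP, against 1995 and 1924 in SEZ_Prom (-1.91 ± 0.27, adjusted p = 0.00436). The arrays of a group lay close together in the last 3 genes, and Mobp, Mbp and Bcas1 were stable to leaving out an array. The other called markers, Fa2h, Ermn, Ugt8a, Tspan2, Mag, Cldn11, Gjb1, Aspa and Mog, fell by 1.90 to 3.68. Without SEZ_GFP replicate 1, SEZ_GFP replicate 2, SEZ_Prom replicate 1 or SEZ_Prom replicate 2, 7, 3, 4 and 4 of the 19 markers passed, with medians of -3.20, -2.73, -3.24 and -3.19.

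Oligodendrocyte progenitor markers had calls in both directions. Of 14 measured, 3 were higher and 1 lower, beside 2.81% and 4.15% of all genes, with a median of 0.06. Their summed intensity was 5711 to 5772 in SEZ_GFP, against 7443 to 8939 in SEZ_Prom, lower in SEZ_GFP without overlap. Olig1 alone made up 4113 and 5065 of the SEZ_Prom sums, against 1028 and 831 in SEZ_GFP. The sum thus rests much on 1 gene, and 7 differences of the list were above 0 and 7 below. Vcan, the matrix proteoglycan versican, had 225 and 342 in SEZ_GFP, against 29 and 29 in SEZ_Prom (3.26 ± 0.42, adjusted p = 0.00325). Ptprz1, a receptor phosphatase of neural progenitors, had 1575 and 1618 in SEZ_GFP, against 328 and 490 in SEZ_Prom (1.99 ± 0.27, adjusted p = 0.00361). Cspg4, the proteoglycan NG2, had 349 and 286 in SEZ_GFP, against 69 and 94 in SEZ_Prom (1.97 ± 0.37, adjusted p = 0.0121). SEZ_GFP was the higher group without overlap in all 3, and Vcan and Ptprz1 were stable to leaving out an array, while Cspg4 passed only without SEZ_Prom replicate 2 (0.0455; 0.0743 to 0.0846 in the other 3 fits). In SEZ_GFPprom, Cspg4 had 36 to 64, the lowest of the 3 groups. Olig1, a factor of the whole oligodendrocyte lineage, was lower, with 1028 and 831 in SEZ_GFP, against 4113 and 5065 in SEZ_Prom (-2.30 ± 0.59, adjusted p = 0.0388), a call lost in each leave-one-out fit (0.122 to 0.214). Olig2 and Sox10, other factors of the lineage, did not pass (-0.92 ± 0.49, adjusted p = 0.324, and -1.46, adjusted p = 0.278).

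Mature neuron markers were lower in 9 of 26 genes and higher in 0, beside 4.15% and 2.81% of all genes, with a median of -1.97. An unadjusted p under 0.05 was reached by 15 lower and 1 higher, beside 3910 of all 18193 genes in either direction. The 9 were Pde10a, Ppp1r1b, Drd1, Thy1, Drd2, Camk2a, Penk, Tac1 and Eno2, among them signalling genes of striatal projection neurons. Ppp1r1b, the dopamine-regulated phosphatase inhibitor DARPP-32, had 109 and 80 in SEZ_GFP, against 921 and 565 in SEZ_Prom (-2.95 ± 0.47, adjusted p = 0.00603). Pde10a, a striatal phosphodiesterase, had 171 and 120 in SEZ_GFP, against 615 and 702 in SEZ_Prom (-2.20 ± 0.32, adjusted p = 0.00488). Drd1, a dopamine receptor, had 22 and 23 in SEZ_GFP, against 136 and 119 in SEZ_Prom (-2.50 ± 0.40, adjusted p = 0.00644). Both SEZ_GFP arrays were below both SEZ_Prom arrays in these 3 genes. Stmn2, a marker of growing axons that is on the neuroblast list too, had 998 and 766 in SEZ_GFP, against 386 and 188 in SEZ_Prom, and did not pass (1.70 ± 0.68, adjusted p = 0.168). The summed intensity of the list was 4341 to 4823 in SEZ_GFP, against 18063 to 18290 in SEZ_Prom. Without SEZ_GFP replicate 1, SEZ_GFP replicate 2, SEZ_Prom replicate 1 or SEZ_Prom replicate 2, 3, 0, 2 and 3 of the 26 markers passed, with medians of -2.05, -1.94, -2.01 and -1.85.

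Choroid plexus markers were lower in 9 of 14 genes and higher in 0, beside 4.15% and 2.81% of all genes, with a median of -2.57. Clic6, a chloride channel protein of this epithelium, had 18 and 9 in SEZ_GFP, against 499 and 618 in SEZ_Prom (-5.45 ± 0.61, adjusted p = 0.00165). Kl, which encodes klotho, had 8 and 7 in SEZ_GFP, against 96 and 72 in SEZ_Prom, and was 8.31-fold lower with values under 10 set to 10 (-3.47 ± 0.28 without that step, adjusted p = 0.000494). Kcne2, a potassium channel subunit, had 7 and 6 in SEZ_GFP, against 32 and 37 in SEZ_Prom (3.44-fold lower with that step; -2.41 ± 0.24, adjusted p = 0.00113). In these 3 genes, and in Slc4a5 and Aqp1, the calls were stable to leaving out an array. The SEZ_GFP values of Kl and Kcne2 lay under an intensity of 10, near background. Ttr, transthyretin, the most abundant product of this epithelium, had 9146 and 436 in SEZ_GFP, against 11943 and 12223 in SEZ_Prom. The SEZ_GFP arrays thus differed from each other in Ttr far more than the groups' other markers, and the gene did not pass (-2.60 ± 1.81, adjusted p = 0.478). The summed intensity of the list was 601 to 9373 in SEZ_GFP, against 13363 to 14067 in SEZ_Prom, with Ttr included. Ttr alone made up 9146 and 436 of the SEZ_GFP sums and 11943 and 12223 of the SEZ_Prom sums. The sum thus rests mostly on 1 gene that did not pass. Without SEZ_GFP replicate 1, SEZ_GFP replicate 2, SEZ_Prom replicate 1 or SEZ_Prom replicate 2, 7, 5, 7 and 6 of the 14 passed.

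Microglia markers were lower in 3 of 21 genes, Ctss, Csf1r and Gpr34, beside 4.15% of all genes. Higher calls numbered 0, and the median was -2.30. With an unadjusted p under 0.05 there were 15 lower and 0 higher, beside 3910 of all 18193 genes in either direction. Ctss, a lysosomal protease, had 337 and 265 in SEZ_GFP, against 2288 and 2244 in SEZ_Prom (-2.92 ± 0.53, adjusted p = 0.0101). Csf1r, the receptor that microglia need to survive, had 541 and 502 in SEZ_GFP, against 2283 and 3648 in SEZ_Prom (-2.47 ± 0.63, adjusted p = 0.0381). In 20 of the 21 genes both SEZ_GFP arrays lay below both SEZ_Prom arrays, beside 27.8% of all genes. Ctss passed in 1 of the 4 leave-one-out fits, that without SEZ_GFP replicate 1 (0.0484), and Csf1r in 0 (0.0993 to 0.198). The summed intensity was 1358 to 1703 in SEZ_GFP, against 7325 to 10331 in SEZ_Prom.

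Markers of other cell types had few calls. Of 23 endothelial, 7 erythrocyte and 16 leukocyte genes 0 passed limma's test, at medians of -0.01, -0.11 and -0.09. An unadjusted p under 0.05 was reached by 1, 0 and 3, all lower, beside 3910 of all 18193 genes in either direction. Pecam1, a marker of endothelium, stood at 8 to 11 on all 4 arrays. Others were brighter, such as Esam, with 53 and 92 in SEZ_GFP, against 72 and 36 in SEZ_Prom. In 11 of the 23 endothelial genes both group means were under 20. The endothelial sum was 1896 to 2165 in SEZ_GFP, against 1969 to 2120 in SEZ_Prom. Of 16 mural cell markers Cspg4 was the 1 higher gene, and of 20 fibroblast and meningeal markers Igfbp2 and Igf2 were the 2 lower ones. Over all genes 2.81% were higher and 4.15% lower. Igf2, insulin-like growth factor 2, which choroid plexus also makes, had 56 and 30 in SEZ_GFP, against 139 and 386 in SEZ_Prom (-2.50 ± 0.53, adjusted p = 0.0184; 0.169 without SEZ_GFP replicate 2 and 0.138 without SEZ_Prom replicate 2). The summed markers of oligodendrocytes, mature neurons, choroid plexus and microglia were thus each lower on both SEZ_GFP arrays than on both SEZ_Prom arrays. For choroid plexus the sum rests mostly on Ttr, which did not pass. The part of such cells in the differences of other genes was not tested. SEZ_Prom is labelled neural stem cells, and its arrays carried Mbp at 11327 and 10834 and Camk2a at 4108 and 5590.

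**Figure D3:**
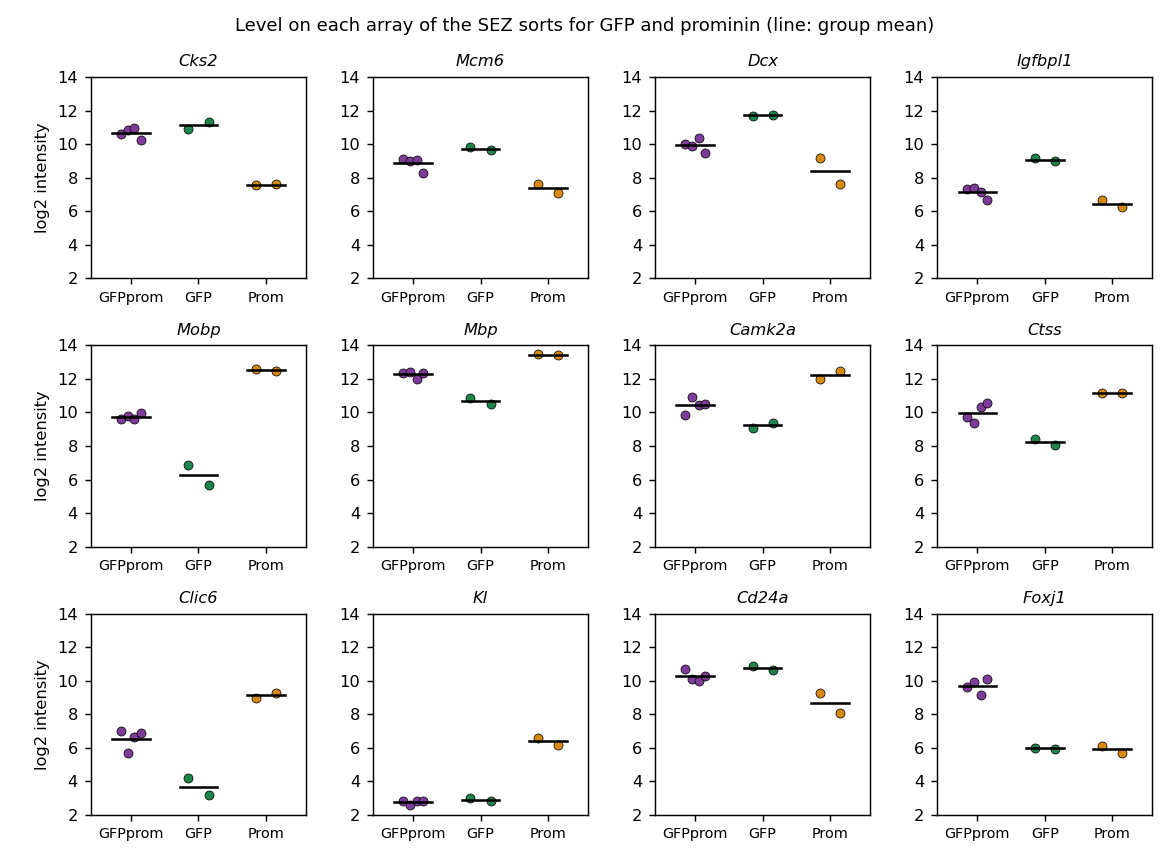
Each panel shows 1 gene, with log2 intensity on the y axis, a point per array and a line at the group mean for SEZ_GFPprom (4 arrays), SEZ_GFP (2) and SEZ_Prom (2). Cks2, Mcm6, Dcx, Igfbpl1 and Cd24a are highest in SEZ_GFP and lowest in SEZ_Prom, Mobp, Mbp, Camk2a, Ctss and Clic6 run the other way with SEZ_GFPprom between, Kl is high in SEZ_Prom (96 and 72) and Foxj1 in SEZ_GFPprom (575 to 1086).

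The sort for both markers gives a further view of the single sorts. For each gene the SEZ_GFPprom mean was set against the midpoint of the SEZ_GFP and SEZ_Prom means, a difference whose estimate is independent of that between the single sorts. Here 605 genes were higher and 94 lower in SEZ_GFPprom than the midpoint, 3.33% and 0.517% of the genes tested (3.84% together). The split moved with the scaling and with single arrays, to 490 higher and 204 lower with equal medians, 535 and 149 with quantile normalization, 385 and 36 without SEZ_GFP replicate 2, and 425 and 36 without SEZ_Prom replicate 1. Of the 512 genes higher in SEZ_GFP than in SEZ_Prom, the SEZ_GFPprom mean lay between the means of the single sorts in 444 (86.7%), above both in 61 and below both in 7. Of the 755 lower genes it lay between them in 677 (89.7%), above both in 29 and below both in 49. These genes were chosen for single-sort means that lie far apart, which favours such a position for any further group. For SEZ_CD24 the shares were 75.2% and 77.4%, and for the diencephalon cells 61.1% and 58.4%. Over all genes tested the share was 45.1% for SEZ_GFPprom, 39.6% for SEZ_CD24 and 36.4% for the diencephalon cells. The shares are a description, and their differences were not tested. Against the midpoint, 43 of the 512 genes passed as higher and 5 as lower, and of the 755, 24 and 28.

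The gene groups that set the single sorts apart took different positions in SEZ_GFPprom. Dcx had 723 to 1307 in SEZ_GFPprom, Mobp 772 to 983 and Camk2a, a kinase of synapses, 917 to 1905. The summed intensity in SEZ_GFPprom was 14364 to 25881 for cell cycle genes, 14112 to 22519 for oligodendrocyte markers and 5010 to 9904 for mature neuron markers. Each of these ranges lay between the ranges of SEZ_GFP and SEZ_Prom. The neuroblast sum, 27939 to 35147 in SEZ_GFPprom, lay below that of SEZ_GFP (58981 to 64371) and overlapped that of SEZ_Prom (24119 to 30004). The choroid plexus sum, 576 to 7955 in SEZ_GFPprom, overlapped that of SEZ_GFP (601 to 9373) and lay below that of SEZ_Prom (13363 to 14067). In the single sorts this sum rests mostly on Ttr. Of the lists of cell cycle, oligodendrocyte and mature neuron genes 0 members differed from the midpoint past the threshold in either direction. Myb, a factor of cell division and of ciliated cell formation, was above both single sorts, with 366 to 796 in SEZ_GFPprom, against 156 and 234 in SEZ_GFP and 16 and 61 in SEZ_Prom. It differed between the single sorts (2.61 ± 0.61, adjusted p = 0.0275) and from their midpoint (2.63 ± 0.43, adjusted p = 0.00403), and the call between the single sorts held only without SEZ_Prom replicate 2 (0.0234; 0.083 to 0.193 in the other 3 fits). Among choroid plexus markers, Kl at 6 to 7 was below the midpoint by -1.89 (adjusted p = 0.000141), while Sostdc1, a secreted antagonist of BMP and Wnt signals, had 127 to 191 in SEZ_GFPprom, against 29 and 12 in SEZ_GFP and 89 and 176 in SEZ_Prom.

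**Figure D4:**
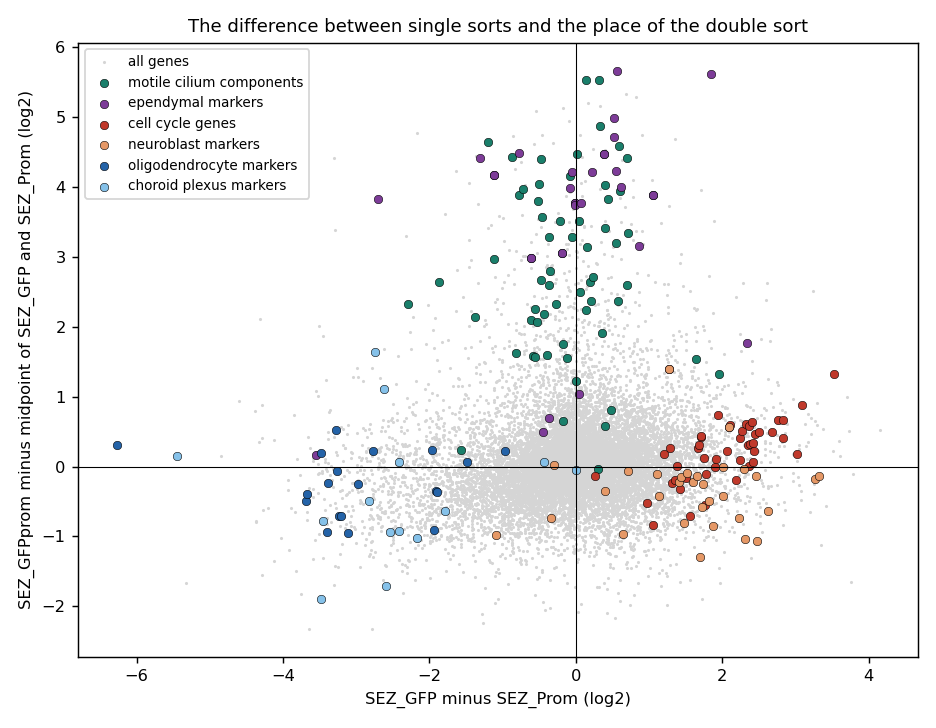
Each grey point is a gene, with SEZ_GFP minus SEZ_Prom (log2) on the x axis and SEZ_GFPprom minus the midpoint of SEZ_GFP and SEZ_Prom (log2) on the y axis, and coloured points are list members. Motile cilium components (medians -0.10 on x and 2.88 on y) and ependymal markers (0.06 and 3.85) stand in a column above 0, and cell cycle genes (2.10 and 0.26) and oligodendrocyte markers (-3.21 and -0.25) lie along the horizontal line.

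Ependymal and cilium genes were far lower in both single sorts than in SEZ_GFPprom. Of 28 ependymal markers 2 (Vim and Cd24a, both also on other lists) were higher and 2 (S100b and Calml4) lower in SEZ_GFP than in SEZ_Prom, with a median of 0.06. Of 66 motile cilium components 0 were higher and 2, Iqcg and Dnal1, lower, with a median of -0.10. Both lists stand beside 2.81% of all genes higher and 4.15% lower. By an unadjusted p under 0.05, 3 cilium components were higher and 6 lower, beside 3910 of all 18193 genes in either direction. Against the midpoint 24 of the 28 and 56 of the 66 were higher in SEZ_GFPprom, with medians of 3.85 and 2.88 and 0 lower. The summed intensity of the ependymal list was 29024 to 52366 in SEZ_GFPprom, 4841 to 7029 in SEZ_GFP and 4361 to 4657 in SEZ_Prom.

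Foxj1, the factor that sets up motile cilia (picked after its values were seen), had 64 and 62 in SEZ_GFP, against 69 and 52 in SEZ_Prom (0.07 ± 0.36, adjusted p = 0.955). In SEZ_GFPprom it had 799, 975, 575 and 1086, all above every array of the single sorts, and it was above the midpoint by 3.77 ± 0.25 (adjusted p = 6.91e-06). Dynlrb2, a dynein light chain, had 1783 to 3100 in SEZ_GFPprom, against 161 and 55 in SEZ_GFP and 17 and 40 in SEZ_Prom. Its SEZ_GFP arrays lay above its SEZ_Prom arrays, a difference that did not pass (1.85 ± 0.69, adjusted p = 0.134). Calml4, a calmodulin-like protein, had 992 to 2589 in SEZ_GFPprom, against 116 and 24 in SEZ_GFP and 223 and 525 in SEZ_Prom. It was lower in SEZ_GFP than in SEZ_Prom (-2.70 ± 0.73, adjusted p = 0.0479), a difference that ran from -3.83 to -1.56 over the leave-one-out fits. Iqcg, a part of the axoneme's dynein regulatory complex, had 14 and 12 in SEZ_GFP, against 35 and 64 in SEZ_Prom (-1.87 ± 0.34, adjusted p = 0.0101; 0.0931 without SEZ_GFP replicate 2 and 0.074 without SEZ_Prom replicate 2), and 123 to 187 in SEZ_GFPprom. Among 17 regulators of multiciliated cells 3 were higher, Plk4, Myb and Nfib, and 0 lower, beside 2.81% and 4.15% of all genes. Deup1, which builds the many centrioles of such cells, did not pass, with 12 and 11 in SEZ_GFP, against 28 and 17 in SEZ_Prom (-0.93 ± 0.45, adjusted p = 0.268).

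Of 123 genes in 5 signalling pathways 9 were higher and 3 lower, 9.76% called against 6.96% of all genes tested. In the Notch pathway 2 of 24 genes were higher, the ligand Jag1, with 124 and 120 in SEZ_GFP, against 49 and 22 in SEZ_Prom (1.89 ± 0.42, adjusted p = 0.0219), and the receptor Notch1, with 2190 and 2152 in SEZ_GFP, against 697 and 888 in SEZ_Prom (1.46 ± 0.36, adjusted p = 0.0353). In the Wnt pathway 4 of 35 were higher, the receptors Fzd8 and Fzd5, the co-receptor Ror2 and the secreted inhibitor Notum, and 0 lower. Fzd8 had 108 and 80 in SEZ_GFP, against 11 and 17 in SEZ_Prom (2.77 ± 0.41, adjusted p = 0.00532), and was stable to leaving out an array. Notum had 126 and 140 in SEZ_GFP, against 29 and 26 in SEZ_Prom (2.27 ± 0.51, adjusted p = 0.0237). Over the leave-one-out fits the adjusted p was 0.0993 to 0.183 for Notch1 and 0.0984 to 0.153 for Notum, so neither passed in any, and Jag1 passed only without SEZ_Prom replicate 1 (0.031; 0.106 to 0.157 otherwise).

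Of 15 hedgehog genes, Gas1, a co-receptor, was higher, with 782 and 856 in SEZ_GFP, against 254 and 315 in SEZ_Prom (1.53 ± 0.21, adjusted p = 0.004), and Hhip, the membrane inhibitor of the ligand, lower, with 37 and 9 in SEZ_GFP, against 277 and 274 in SEZ_Prom (-3.92 ± 0.88, adjusted p = 0.0238). Of 24 EGF and FGF genes the receptor Egfr was higher and its ligand Tgfa lower, with 155 and 61 in SEZ_GFP, against 958 and 793 in SEZ_Prom (-3.16 ± 0.46, adjusted p = 0.00468). On these probe sets the receptor and its ligand thus differed in opposite directions between the sorts, each without overlap. Another Egfr probe set had 188 and 155 in SEZ_GFP, against 36 and 39 in SEZ_Prom. A further one overlapped, with 103 and 118 in SEZ_GFP, against 85 and 128 in SEZ_Prom. The call of Egfr was not stable to leaving out an array. Without SEZ_GFP replicate 2 Gas1 and Tgfa missed the threshold (0.0535 for both), Hhip passed only without SEZ_GFP replicate 1 (0.0401; 0.11 to 0.208 otherwise) and Bambi in none of these fits (0.0608 to 0.14). Of 25 BMP and Id genes the pseudoreceptor Bambi was higher, with 142 and 103 in SEZ_GFP, against 50 and 36 in SEZ_Prom (1.51 ± 0.33, adjusted p = 0.0217), and the ligand Bmp2 lower, with 7 and 11 in SEZ_GFP, against 25 and 56 in SEZ_Prom. With values under 10 set to 10, Bmp2 differed by -1.83 (adjusted p = 0.08). Cd83, whose values were all above 10, also lost its call with that step at an unchanged difference (-4.29, adjusted p = 0.0615). The lost call of Bmp2 thus does not show that it rests on background values. In SEZ_GFPprom Bambi had 226 to 391, above both single sorts.

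Of 36 extracellular matrix genes 4 were higher, Vcan, Spon1, Fbln2 and Agrn, and Lamb1 was lower. Spon1, the secreted adhesion protein F-spondin, had 1025 and 869 in SEZ_GFP, against 208 and 138 in SEZ_Prom (2.48 ± 0.30, adjusted p = 0.00203), and Fbln2, fibulin 2, had 155 and 150 in SEZ_GFP, against 38 and 32 in SEZ_Prom (2.13 ± 0.32, adjusted p = 0.00518). The arrays of a group were close in both genes, Spon1 was stable to leaving out an array, and Fbln2 missed the threshold without SEZ_GFP replicate 2 (0.0536) and without probe sets of shared sequence (0.89, adjusted p = 0.135). Lamb1, a laminin chain, had 16 and 20 in SEZ_GFP, against 127 and 125 in SEZ_Prom (-2.82 ± 0.34, adjusted p = 0.00196), on a probe set whose name marks a shared sequence. On another probe set, with 15 and 13 in SEZ_GFP, against 11 and 11 in SEZ_Prom, it differed by 0.34 and did not pass (adjusted p = 0.348). Its further probe sets differed by -1.09 and -0.18. All of these stood at 18 or less, near background, so they say little on the direction. Of 30 cadherin and junction genes Cdh4 was higher and Jam3 and F11r lower, and of 16 glycolysis genes Aldoa was lower. Of 19 cholesterol synthesis genes 0 passed (1, lower, at an unadjusted p under 0.05, which 3910 of all 18193 genes reached). The share called over all genes tested was 6.96%, and none of these lists was tested against it.

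Among interferon and antigen presentation genes 1 of 23, Stat2, was higher, and among immediate early and stress genes 1 of 25, Fosl2, was lower, with 50 and 40 in SEZ_GFP, against 211 and 237 in SEZ_Prom (-2.32 ± 0.53, adjusted p = 0.0255; 0.0916 to 0.172 over the leave-one-out fits). Both counts stand beside 6.96% of all genes called. The stress list had a median of -0.17. Its summed intensity was 21829 to 23477 in SEZ_GFP, against 21454 to 25302 in SEZ_Prom, with the groups overlapping. Of 4 sex genes 0 passed limma's test at the adjusted threshold, and 1 higher and 1 lower did at an unadjusted p under 0.05. Xist, the RNA of the inactive X chromosome, had 38 and 83 in SEZ_GFP, against 887 and 1413 in SEZ_Prom (-4.32 ± 1.57, adjusted p = 0.127), and Eif2s3y, on the Y chromosome, had 206 and 325 in SEZ_GFP, against 93 and 47 in SEZ_Prom (1.97 ± 0.60, adjusted p = 0.0735). The groups did not overlap in either gene. Kdm5d and Uty, also on the Y chromosome, did not pass and their groups met or overlapped, with 67 and 46 in SEZ_GFP, against 46 and 29 in SEZ_Prom for Kdm5d (0.60 ± 0.65, adjusted p = 0.689), and 16 and 28 in SEZ_GFP, against 53 and 14 in SEZ_Prom for Uty (-0.36 ± 0.69, adjusted p = 0.841). The labels used here do not give the sex of the mice, and the part of sex in the differences above was not tested.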

How the data were processed

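RNA of sorted cells was measured on 14 Affymetrix MOE430 2.0 arrays in 5 groups. The RNA was purified on columns with DNase and amplified in 2 rounds, per the labels' protocols. The authors deposited linear intensity values made by RMA, per the submitters' processing notes, with the version not given in the sources used here. RMA makes the arrays' distributions alike, so a shift of most genes in 1 group would not show. The values are whole numbers from 3 to 18925 and were tested as log2 with no pseudocount, whereas the plan had assumed log2 values. Columns that matched no sample numbered 0.

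Of 45101 probe sets, 34945 had 1 gene symbol, and the brightest on average over all arrays stood for each of 18193 genes. A group mean per gene was fitted over the 14 arrays with limma 3.58.1 in R 4.3.3 (lmFit, contrasts.fit, eBayes; 9 residual and 2.63 prior degrees of freedom) and no covariate. Two-sided p-values were adjusted (Benjamini-Hochberg) across the 18193 genes, and a gene was called at an adjusted p under 0.05. The fit was tested on simulated data, with 50 genes changed at each size. It recovered 22%, 68%, 76% and 96% of changes of 1, 2, 3 and 4 on the log2 scale. Of its calls, 3.68% were unchanged genes. A gene that did not pass can thus still differ.

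The comparison, the 30 gene lists and the rules were chosen with earlier results of these data known, so lists are given as counts and medians with no test of their own, and older symbols were matched through RefSeq synonyms. The rule for names took the 15 highest and 15 lowest differences among called genes without overlap between the groups (clone and model names left out), Gfap, Prom1 and Cd24a, and up to 4 members per list and direction with the smallest adjusted p, of which the text prints a part. Other names, among them Mki67, Mcm5, Foxj1, Ttr, Pecam1, Xist and the further called list members, were chosen after their values were seen. Alternatives were other normalizations, filters on dim genes, other choices of probe set, other fits, a replicate block and leaving out each array in turn. Promoter windows were the 250 bases before each start in the RefSeq table, counted as holding a motif if any window of the gene did.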

Additional observations from a re-analysis of the deposited data

Results flagged for a closer look

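Among 22 genes with printed or examined levels in the 4 SEZ_GFPprom arrays, 4 had an array far from the other 3 by the gap divided by the range, where chance gives about 1 in 20. Bambi had 391 on one array and 226, 241 and 235 on the others (0.883). Kl had 7, 6, 7 and 7, a step of 1 whole unit at background (1.000). Mbp had 4147 on one array and 5175 to 5342 on the others (0.875). Xist had 126 on one array and 1898 to 2691 on the others (0.886). The SEZ_GFP and SEZ_Prom groups have 2 arrays each, too few for such a check.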

How the results depend on the processing

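The number of genes past the threshold between SEZ_GFP and SEZ_Prom (1267) was 580 when the fit held only the groups compared, 2897 with array weights, and 77 to 335 with 1 array left out; over the other 11 alternatives it was 913 to 1450. The number against the midpoint (699) was 1093 with array weights, 421 to 709 with 1 array left out, and 498 to 898 otherwise. Equal medians moved the median difference of all genes by 0.11, to 0.10, and gave 659 genes on each side. The replicate numbers share no stated batch, and deviations of same-numbered arrays correlated at r = 0.055. With the replicate number as a block, 1052 genes passed (403 higher and 649 lower). Mthfd2l turned to -0.60 and Lamb1 to 0.34 without probe sets of shared sequence. Trim37 turned to -0.25 there and to -0.42 with the mean of its probe sets, where Rian turned to 1.72. The cause was not tested, beyond the change of probe set that these alternatives make.

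Of the called genes that were named (139), 78 were lost when only the groups compared were fitted, 42 with values under 10 set to 10, and 86, 117, 83 and 97 without SEZ_GFP replicate 1, SEZ_GFP replicate 2, SEZ_Prom replicate 1 and SEZ_Prom replicate 2. Fits with 1 array left out have 1 array in a group. About 25.5% of probe sets stood at 10 or less on each array, where differences are compressed. Setting values under 10 to 10 also took the call from Cd83, which had no such value, so a call lost there need not rest on dim values.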
